A study of Mus musculus with 5 samples.

Results

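The kinesin and dynein motor genes were examined after knockdown of Upf1 in N2A (Neuro-2A) cells, which derive from a mouse neuroblastoma. The members were the protein-coding genes whose symbols name a kinesin (Kif and Kifc), a kinesin light chain (Klc1 to Klc4), a chain of cytoplasmic dynein (Dync1, Dync2, Dynll, Dynlr and Dynlt) or a dynactin subunit (Dctn1 to Dctn6). This rule used names alone and found 69 of the 55573 genes in the table. By role, 14 were mitotic kinesins, 41 were transport motors with their light chains and dynactin, and 14 were other kinesins of cilia, of microtubule regulation or of other kinds. The last group includes Kif1bp, which encodes a kinesin-binding protein and not a motor.

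The study asked which transcripts depend on UPF1, an RNA helicase required for nonsense-mediated mRNA decay (NMD), in neural cells. N2A cells were transfected with 60 pmol of a commercial non-targeting siRNA (siCtl, n = 2, replicates 1 and 3) or of an siRNA against Upf1 (siUpf1, n = 3, replicates 1, 2 and 3), and polyadenylated RNA was sequenced. All libraries came from the same line without any other genetic change, a tumour line that divides in culture. The labels do not say whether replicates were separate cultures, so p-values measure the spread between these libraries, which may be technical.

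Kinesins and cytoplasmic dynein are motor proteins that walk along microtubules. Most kinesins move towards the plus end and carry vesicles, mitochondria and RNA granules out along neurites, whereas dynein, with its activator dynactin, carries cargo back to the cell body. A separate set of kinesins builds and moves the mitotic spindle and closes the cleavage furrow, and is made mainly in dividing cells. Dynein and dynactin work in both settings. Neuroblastoma cells, which divide and also extend neurites, can use both sets.

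Library depth was between 20402205 and 27717594 assigned reads, and 3 counts, the limit that a count of 0 allows, correspond to 0.108 to 0.147 CPM (counts scaled to the library total). This floor covers counting error only. Upf1 had 5217 and 5243 normalised read counts in siCtl and 2403, 2496 and 2449 in siUpf1, or 46.8% of the siCtl level (log2 fold change -1.10, SE 0.0507, DESeq2 adjusted p = 7.09e-101). Of 12 genes chosen as marks of the sympathetic and neuroblastoma lineage, Tubb3, Hand2 and Chrna3 were expressed in every library, whereas the neurofilament genes Nefl and Nefm had at most 4.19 normalised counts. The summed level of the 12 was 42856 to 42948 in siCtl and 50165 to 52188 in siUpf1. Marks of other cell types summed to at most 306 (fibroblast), 581 (glia), 224 (endothelium) and 38.7 (immune) normalised counts in any library, and Lum and Kdr were at 0.

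Of the 69 motor genes, 60 had enough reads to be tested. Kif2b, Dync1i1 and Dynlrb2 had no read in any library. The other 6 that were not tested, Kif1a, Kif12, Kif16b, Kif19a, Kif21a and Kif27, had at most 5 raw counts in any library. Dync1i1, the neuronal intermediate chain of dynein, and Kif1a, the main carrier of synaptic vesicle precursors in neurons, were thus at or near 0 in these cells.

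Among the 60 tested, 13 motor genes were higher and 15 lower in siUpf1 at an adjusted p-value under 0.05 (46.7%), while 44.9% of all 15191 tested genes were called, 22% higher and 22.9% lower. The share of motor genes called was thus near that of all genes. Their median log2 fold change was -0.06, between -1.50 and 1.22, and that of all tested genes was 0.00. In 43 of the 60 the 3 siUpf1 libraries did not overlap the siCtl libraries, 19 above and 24 below, and over all tested genes the groups did not overlap in 69.4%, with 34.3% above and 35.2% below. A log2 fold change of at least 1 in either direction was reached by 3 members, Kif26a, Kif9 and Klc3. The edgeR quasi-likelihood test called 13 motor genes higher and 19 lower, beside 54.6% of all genes tested by edgeR, 27.5% higher and 27.1% lower.

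**Figure D1:**
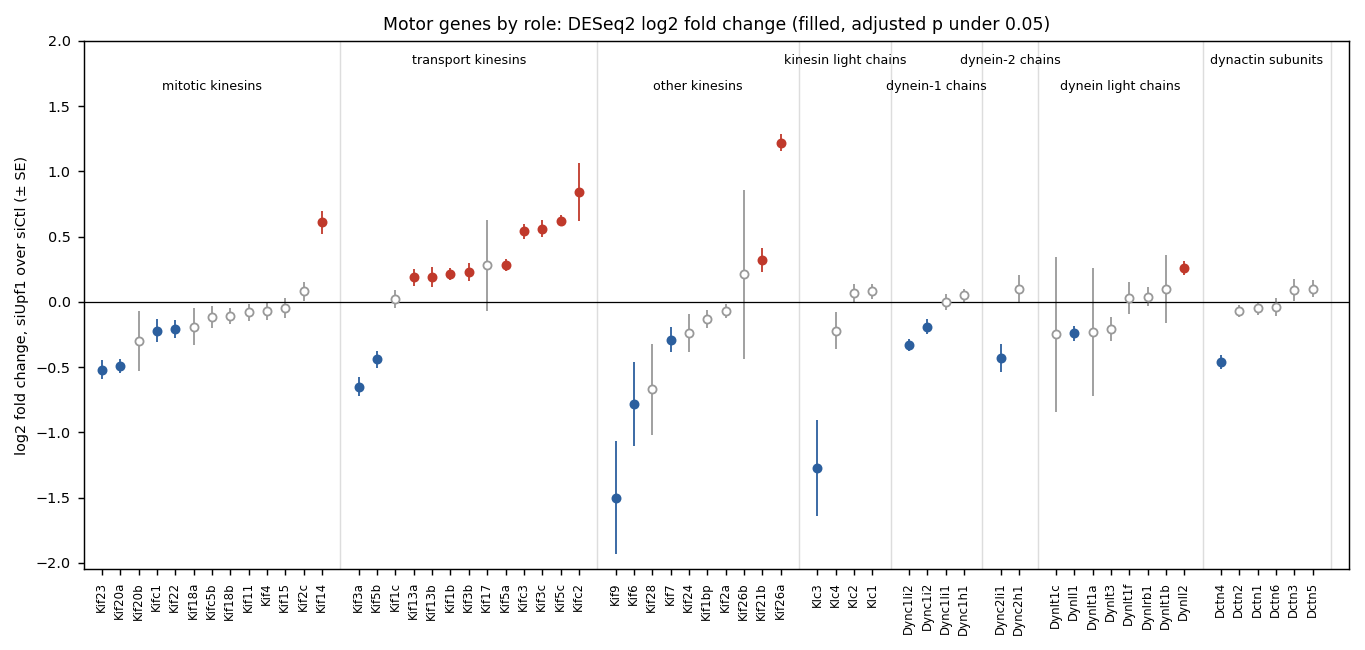
Log2 fold change (siUpf1 over siCtl) of the 60 tested motor genes with DESeq2's SE, grouped by role, with filled red points for genes called higher, filled blue points for genes called lower and open points for genes not called. Transport kinesins held 9 of the 13 higher genes, and Kif14 was the only mitotic kinesin called higher.

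The transport and mitotic kinesins gave different counts. Transport kinesins gave 9 higher (69.2%) and 2 lower (15.4%) of 13 tested, with a median of 0.23. Mitotic kinesins gave 1 higher (7.69%) and 4 lower (30.8%) of 13 tested, with a median of -0.12. Over the whole transport side, with the light chains, dynein and dynactin included, 10 were higher (27%) and 8 lower (21.6%) of 37 tested. The median there was 0.04. Of all tested genes, 22% were higher and 22.9% lower, so the whole transport side was near all genes. The difference between these groups of genes was not tested, and genes are not replicates of a condition.

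Kinesin-1 is the main carrier of organelles towards the plus end, and its 3 heavy chain genes moved in opposite directions. Kif5c (chromosome 2, 49619298 to 49774778), a heavy chain enriched in neurons, gave 6430 and 6156 normalised counts in siCtl replicates 1 and 3 and 9747, 9724 and 9640 in siUpf1 replicates 1, 2 and 3. All siUpf1 libraries lay above both siCtl libraries, at 154% of the siCtl mean (log2 fold change 0.62, SE 0.0424, DESeq2 adjusted p = 3.66e-47). Kif5a (chromosome 10, 127225696 to 127263348), the other heavy chain enriched in neurons, had 4310 and 4165 in siCtl and 5085, 5224 and 5178 in siUpf1. It rose by a smaller amount (0.28, SE 0.0474, DESeq2 adjusted p = 1.35e-08).

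Kif5b, the heavy chain used in most tissues, went the other way. Its counts were 4143 and 4135 in siCtl and 3322, 2791 and 3017 in siUpf1, so that every siUpf1 library lay below both siCtl libraries, and the log2 fold change was -0.44 (SE 0.0651, DESeq2 adjusted p = 1.02e-10). The call of each of the 3 heavy chains held under every alternative setting tried.

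The make-up of the kinesin-1 pool was compared on a scale per length, TPM, which divides counts by exon length and then scales each library to the same total. Kif5c made up 44.2% and 43.6% of the summed TPM of the 3 genes in siCtl and 54.4%, 55.4% and 54.7% in siUpf1. The share of Kif5b was 25.5% and 26.2% in siCtl and 16.6%, 14.2% and 15.3% in siUpf1. Kif5a stayed between 29% and 30.4% in all 5 libraries. Kif5c was thus the most abundant heavy chain transcript in both groups. On this scale Kif5a lay above Kif5b in every library, with a wider gap in siUpf1. The order of Kif5a and Kif5b in siCtl depends on the length used. Exon length over all isoforms was 6990 nt for Kif5a and 7981 nt for Kif5b, whereas 1 representative transcript has 6295 and 6032 nt.

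Kinesin-2 is the second pool that was rearranged. It is the motor of ciliary transport and of several neuronal cargoes, in which KIF3A pairs with KIF3B or KIF3C and, with KIF3B, binds the accessory subunit KAP3. Kif3a (chromosome 11, 53567379 to 53601967) had 1707 and 1731 normalised counts in siCtl and 1105, 1116 and 1065 in siUpf1. The siUpf1 level was 63.7% of that of siCtl (log2 fold change -0.65, SE 0.0707, DESeq2 adjusted p = 6.27e-19), and the ranges of the groups were far apart.

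Both of its partners rose. Kif3c (chromosome 12, 3365132 to 3406494), which is most abundant in nervous tissue, gave 1801 and 1679 in siCtl and 2543, 2661 and 2483 in siUpf1 (log2 fold change 0.56, SE 0.0633, DESeq2 adjusted p = 2.02e-17). Kif3b (chromosome 2, 153291413 to 153333390) gave 1489 and 1441 in siCtl and 1730, 1815 and 1626 in siUpf1 (0.23, SE 0.071, DESeq2 adjusted p = 0.00308). The Kif3b call was lost without siCtl replicate 3 (0.21, DESeq2 adjusted p = 0.101). Kifap3, which encodes the accessory subunit and is no member, had 1570 and 1520 in siCtl and 1080, 1071 and 980 in siUpf1 (-0.57, DESeq2 adjusted p = 1.2e-12), and so it fell as Kif3a did.

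In siCtl, Kif3a made up 48% and 49.6% of the summed TPM of Kif3a, Kif3b, Kif3c and Kif17, and in siUpf1 31.8%, 31% and 31.9%. Kif3c went from 24.5% and 23.3% to 35.4%, 35.8% and 36%. Kif3b went from 26.6% and 26.3% to 31.7%, 32.1% and 31%. With exon length over all isoforms, the common partner Kif3a was therefore nearly as abundant as Kif3b and Kif3c together in siCtl. That comparison depends on the length used. In siUpf1, Kif3c had the highest level of the 4 genes in every library. Kif17, a homodimeric motor of the same family, made up 0.867% to 1.23% of the pool and was not called (log2 fold change 0.28, 95% confidence interval -0.40 to 0.96).

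**Figure D2:**
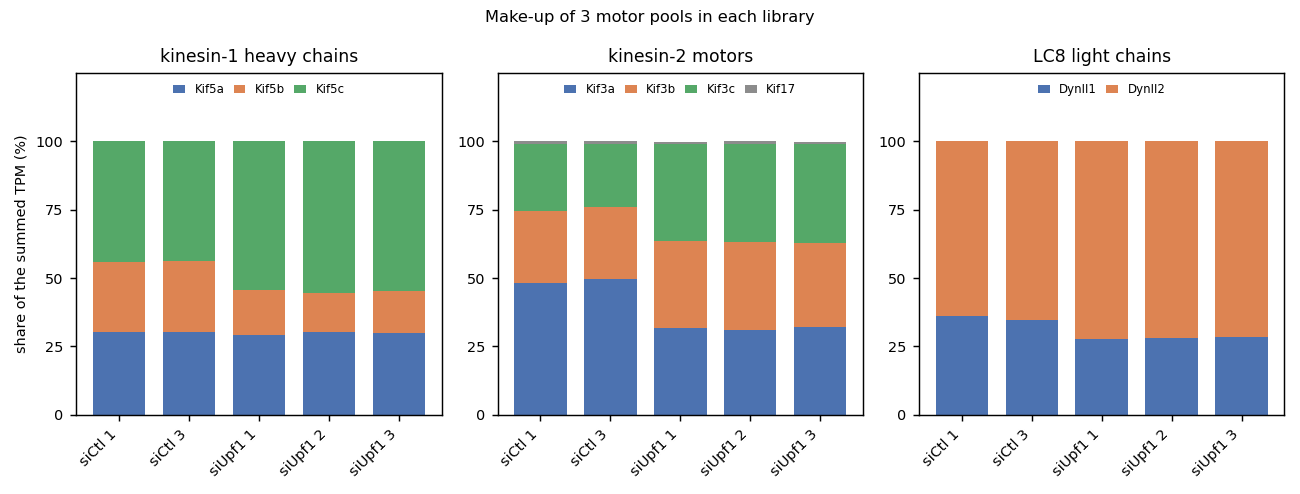
Share of the summed TPM (%) taken by each gene of the kinesin-1 heavy chains, the kinesin-2 motors and the LC8 dynein light chains in each of the 5 libraries. The 3 siUpf1 bars resemble each other in each panel, with more Kif5c, Kif3c and Dynll2 and less Kif5b, Kif3a and Dynll1 than the siCtl bars.

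The 2 C-terminal kinesins of the transport set rose. Kifc3 (chromosome 8, 95099828 to 95202812), a minus-end motor of Golgi and cell junction traffic, gave 1797 and 1835 in siCtl and 2594, 2700 and 2629 in siUpf1 (log2 fold change 0.54, SE 0.059, DESeq2 adjusted p = 1.18e-18). Kifc2 (chromosome 15, 76659858 to 76668196), a minus-end motor found in neurons, had low counts of 83.9 and 78.3 in siCtl and 149, 147 and 140 in siUpf1 (0.84, SE 0.22, DESeq2 adjusted p = 0.000449). For both genes the siUpf1 libraries were all above the siCtl libraries.

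Rises in the kinesin-3 transport motors were smaller. Kif1b, a carrier of mitochondria and of synaptic vesicle precursors, had 9786 and 9183 in siCtl and 10680, 10918 and 11315 in siUpf1 (log2 fold change 0.21, SE 0.0454, DESeq2 adjusted p = 1.7e-05). In every library it had the highest normalised count of any kinesin. Kif13a, an endosomal motor, had 1630 and 1714 against 1900, 1870 and 1971 (0.19, DESeq2 adjusted p = 0.00769), and its relative Kif13b had 1143 and 1189 against 1325, 1269 and 1389 (0.19, DESeq2 adjusted p = 0.03).

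The last 2 calls depended on single libraries. Kif13a was not called without siCtl replicate 1 (DESeq2 adjusted p = 0.191) or siUpf1 replicate 3 (0.0716). Kif13b was not called without siCtl replicate 1 (DESeq2 adjusted p = 0.27), siCtl replicate 3 (0.118), siUpf1 replicate 1 (0.0786) or siUpf1 replicate 3 (0.179), and neither gene was called with the trend of length and GC content removed (log2 fold change 0.09 for Kif13a and 0.11 for Kif13b). Kif1c, a motor of Golgi and RNA traffic, was not called (0.02, 95% confidence interval -0.12 to 0.16). Beside these transport kinesins, 6 of 10 tested lineage marks were higher (60%) and 1 was lower (10%), beside 22% and 22.9% of all tested genes, with Isl1 at 1.80 and Hand2 at 0.57 on the log2 scale. The part of that shift in the motor levels was not tested.

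**Figure D3:**
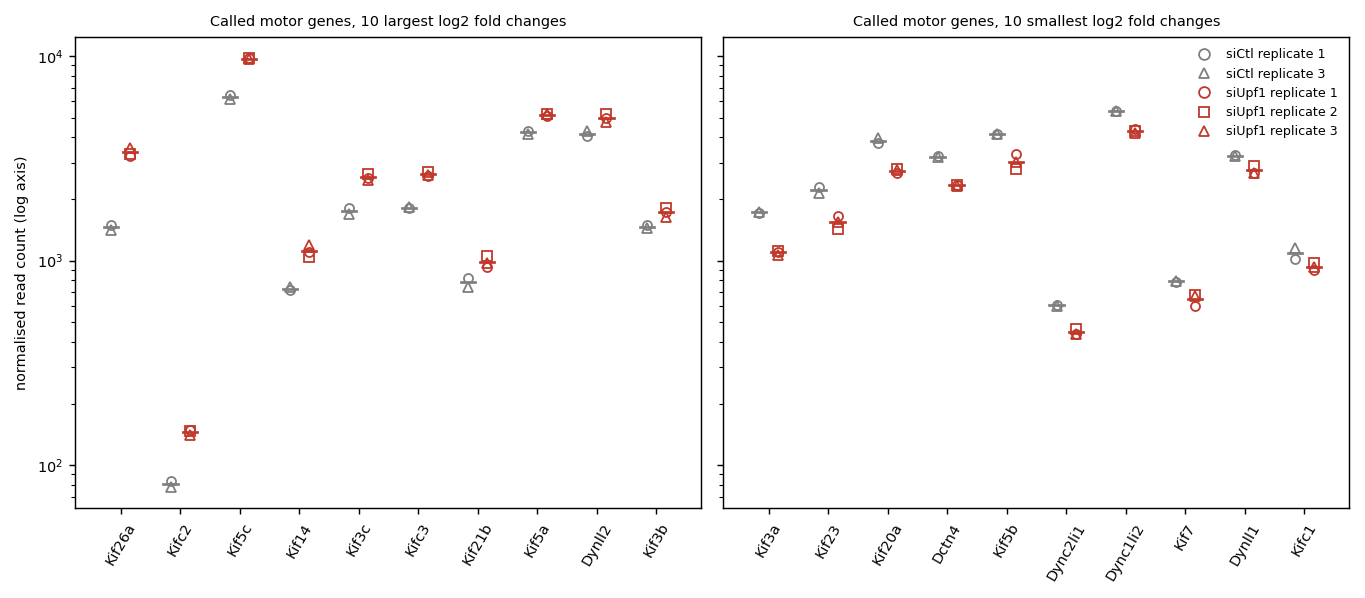
Normalised read counts (log axis) in each library for the 10 called motor genes that rose most and the 10 that fell most where the mean was 100 normalised counts or more, siCtl in grey and siUpf1 in red, with a bar at each group mean. In each of the 20 genes every siUpf1 library lies on one side of both siCtl libraries. The 20 were picked by their calls and fold changes in these same libraries, and 69.4% of all tested genes did not overlap either.

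Kinesin light chains couple kinesin-1 to its cargo adaptors. Klc1 made up 54.4% to 58% of the summed TPM of the 4 light chain genes and Klc2 29.9% to 32.5%. Neither was called, with log2 fold changes of 0.08 (95% confidence interval -0.04 to 0.19) for Klc1 and 0.07 (-0.07 to 0.20) for Klc2. Klc4 was not called either (-0.22, -0.50 to 0.06).

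Klc3, a minor light chain here at 0.751% to 2.51% of the pool, had 59.7 and 72.6 normalised counts in siCtl and 24.9, 36.4 and 22.3 in siUpf1. It fell to 42.1% of the siCtl level (log2 fold change -1.27, SE 0.368, DESeq2 adjusted p = 0.00176), and without siCtl replicate 3 it was not called (-1.12, DESeq2 adjusted p = 0.111). The changed transcript shares of the heavy chains thus stood beside main light chain levels whose intervals exclude log2 changes above 0.20 and below -0.07.

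Cytoplasmic dynein-1 is built around the motor subunit encoded by Dync1h1. With 18411 and 17647 normalised counts in siCtl and 17206, 19101 and 19522 in siUpf1, Dync1h1 (chromosome 12, 110601452 to 110666945) overlapped between the groups and was not called (log2 fold change 0.05, SE 0.0515, 95% confidence interval -0.06 to 0.15). Its direction was not settled, since it was called higher without siUpf1 replicate 1 (0.10, DESeq2 adjusted p = 0.038) and lower with the trend of length and GC content removed (-0.21, DESeq2 adjusted p = 4.33e-07).

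The light intermediate chains, which join the dynein heavy chain to cargo adaptors, differed from each other. Dync1li2 (chromosome 8, 104417680 to 104443047) gave 5390 and 5403 in siCtl and 4398, 4307 and 4205 in siUpf1 (log2 fold change -0.33, SE 0.0473, DESeq2 adjusted p = 4.68e-11). Dync1li1 gave 2469 and 2465 in siCtl and 2571, 2459 and 2383 in siUpf1 (0.00, 95% confidence interval -0.11 to 0.12). As a share of the summed TPM of the pair, Dync1li1 went from 41.6% and 41.5% to 47.7%, 47.1% and 46.9%. Dync1li2 was thus the larger in all libraries with exon length over all isoforms (6027 nt, and 3871 nt for Dync1li1). Their order in siUpf1 depends on the length used, since 1 representative transcript has 4627 and 2601 nt.

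Dync1i2, the intermediate chain present in these cells, had 4175 and 3953 in siCtl and 3718, 3431 and 3544 in siUpf1 (log2 fold change -0.19, SE 0.0547, DESeq2 adjusted p = 0.0019). This call was lost without siCtl replicate 1 (-0.15, DESeq2 adjusted p = 0.117).

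The LC8 light chains, small dimers that hold dynein intermediate chains and many other proteins together, moved apart. Dynll2 (chromosome 11, 87979525 to 87987533) had 4041 and 4277 in siCtl and 4965, 5211 and 4742 in siUpf1, and rose (log2 fold change 0.26, SE 0.0542, DESeq2 adjusted p = 1.05e-05). Dynll1 (chromosome 5, 115297110 to 115300999) had 3264 and 3235 in siCtl and 2676, 2911 and 2693 in siUpf1, and fell (-0.24, SE 0.0573, DESeq2 adjusted p = 0.000138). Dynll1 went from 36.2% and 34.7% of the summed TPM of the pair to 27.5%, 28.2% and 28.5%. The level of this share depends on the length used. Exon length over all isoforms was 3890 nt for Dynll1 and 2736 nt for Dynll2, whereas 1 representative transcript has 2030 and 2476 nt.

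Other light chains gave no DESeq2 call. With exon length over all isoforms, Dynlrb1, a roadblock chain, had the highest TPM of all 69 genes in siCtl (188 ± 11.2, SD, n = 2). This rank depends on the length used. Dynlrb1 was at 192 ± 24 in siUpf1 (SD, n = 3). Its log2 fold change was 0.04 (95% confidence interval -0.09 to 0.18). Dynlt3 had 843 and 846 in siCtl and 778, 693 and 722 in siUpf1 (-0.21), where DESeq2 gave an adjusted p of 0.0544 and edgeR one of 0.014. Leaving out siUpf1 replicate 1 brought Dynlt3 past the threshold (-0.25, DESeq2 adjusted p = 0.0448). The 4 Dynlt1 genes are uncertain, since 47.4% (Dynlt1a) to 82% (Dynlt1b) of their windows of 100 nt, the read length, also occur in another gene.

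Dynactin links dynein to cargo and keeps it on the microtubule. Of its 6 subunits counted, only Dctn4 was called by DESeq2 with all libraries, the subunit p62 of the pointed end. Its 3234 and 3194 normalised counts in siCtl compared with 2337, 2333 and 2319 in siUpf1, or 72.5% of the siCtl level (log2 fold change -0.46, SE 0.0544, DESeq2 adjusted p = 2.12e-16). Within each group the spread was small beside this gap.

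The other subunits lay close to 0 on the log2 scale. Dctn1, which encodes the microtubule-binding arm p150Glued, had 4175 and 4150 in siCtl and 4013, 4130 and 3967 in siUpf1 (-0.05, 95% confidence interval -0.14 to 0.05). Dctn2 was at -0.07 (-0.16 to 0.02), Dctn3 at 0.09 (-0.07 to 0.26), Dctn5 at 0.10 (-0.03 to 0.23) and Dctn6 at -0.04 (-0.17 to 0.09). With the trend of length and GC content removed, Dctn1 was called lower (-0.13, DESeq2 adjusted p = 0.0049) and Dctn3 (0.20, 0.0226) and Dctn5 (0.20, 0.00258) higher.

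Dynein-2 returns cargo from the tip of cilia. Its light intermediate chain gene Dync2li1 (chromosome 17, 84626496 to 84655588) gave 606 and 601 in siCtl and 439, 463 and 439 in siUpf1 (log2 fold change -0.43, SE 0.106, DESeq2 adjusted p = 0.000181). Its motor subunit gene Dync2h1 gave 631 and 658 in siCtl and 746, 596 and 728 in siUpf1, which overlap (0.10, 95% confidence interval -0.11 to 0.32). Among the intermediate chains of dynein-2, which are no members, Wdr60 fell (-0.56, DESeq2 adjusted p = 0.00149) and Wdr34 was not called (-0.10, DESeq2 adjusted p = 0.587).

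Kif26a showed the largest rise of the 60 tested genes. It encodes an atypical kinesin that binds microtubules without moving along them and restrains GDNF receptor signalling in enteric neurons. Kif26a (chromosome 12, 112146208 to 112181747) gave 1492 and 1411 normalised counts in siCtl and 3260, 3333 and 3549 in siUpf1, or 233% of the siCtl level (log2 fold change 1.22, SE 0.0629, DESeq2 adjusted p = 1.4e-81). Of all tested genes, 4.85% were called with a log2 fold change of at least 1 in either direction. Its fold change was between 1.03 and 1.26 under the 13 alternatives. Its relative Kif26b was near the limit of detection, at 11.3 to 13.8 normalised counts.

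Kif21b, a neuronal kinesin that also tempers microtubule growth, had 822 and 744 in siCtl and 926, 1050 and 969 in siUpf1 (log2 fold change 0.32, SE 0.091, DESeq2 adjusted p = 0.00121). This call was lost without siCtl replicate 3 (0.25, DESeq2 adjusted p = 0.11) and with the trend of length and GC content removed (0.14, DESeq2 adjusted p = 0.189). Kif2a, a microtubule-depolymerising kinesin of neurites, was not called (-0.07, 95% confidence interval -0.18 to 0.03), but with the trend removed it was (-0.16, DESeq2 adjusted p = 0.00521).

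Kif7, Kif9 and Kif6 were called lower. Kif7, which works at the ciliary tip in Hedgehog signalling, had 785 and 798 in siCtl and 602, 675 and 673 in siUpf1 (log2 fold change -0.29, SE 0.096, DESeq2 adjusted p = 0.00806). Kif9, a kinesin of motile cilia, had 72.3 and 37.7 in siCtl and 22.2, 20.1 and 16 in siUpf1 (-1.50, SE 0.435, DESeq2 adjusted p = 0.00184), where the siCtl libraries were farther from each other than the lower of them was from any siUpf1 library. Kif6, also of motile cilia, had 72.3 and 72.6 in siCtl and 52.5, 36.4 and 37.4 in siUpf1 (-0.78, SE 0.322, DESeq2 adjusted p = 0.037).

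These 3 calls rested on single libraries. The adjusted p of Kif7 was 0.077 without siCtl replicate 1, 0.118 without siCtl replicate 3 and 0.0781 without siUpf1 replicate 1. Without siCtl replicate 1, Kif9 was at -0.96 (DESeq2 adjusted p = 0.266). Kif6 held without siUpf1 replicate 1 but not without siCtl replicate 1 (DESeq2 adjusted p = 0.196), siCtl replicate 3 (0.21), siUpf1 replicate 2 (0.131) or siUpf1 replicate 3 (0.159).

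Kif24, a centriolar kinesin that holds back ciliogenesis, and Kif28 were called by edgeR and not by DESeq2. Kif24 had 282 and 281 in siCtl and 223, 241 and 252 in siUpf1 (log2 fold change -0.24), with an adjusted p of 0.192 by DESeq2 and 0.0488 by edgeR. Kif28 had 52.4 and 64.2 in siCtl and 36.5, 30.1 and 42.8 in siUpf1 (-0.67), with an adjusted p of 0.109 by DESeq2 and 0.0188 by edgeR.

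The mitotic kinesins were expressed in these dividing cells, with 374 to 3856 normalised counts as group means for 13 genes and no read for Kif2b, which is made mainly in testis. Genes of late cell cycle phases often carry a cell cycle homology region (CHR, searched as TTTGAA) and a CCAAT box (CCAAT) near the start site. Both motifs were searched on both strands, from 250 bases before to 50 after each RefSeq start on GRCm38.p6, where 51 of the 69 motor genes had a promoter. The motifs can overlap by no more than 1 base. A CHR was present in 11 of 13 mitotic kinesin genes with a promoter (84.6%), in 2 of 28 transport motor genes (7.14%) and in 14.3% of the tested genes. A CCAAT box was present in 69.2%, 42.9% and 43.3% of these, and both motifs in the same promoter in 61.5%, 0% and 5.91%.

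To show what the promoters with a CHR share, stretches of 30 bases around it are given for 4 mitotic kinesins that were called and 2 that were not. No CHR is given for Kif20a, the other mitotic kinesin called, which may be among the motor genes without a promoter in this search. The sequences run 5′ to 3′ along the gene, with the CHR or its reverse complement TTCAAA in capitals. These stretches, within RefSeq promoters, lie at chr9:61946780-61946809 (Kif23, minus strand), chr7:127042420-127042449 (Kif22, minus strand) and chr17:33890615-33890644 (Kifc1, minus strand). The others lie at chr1:136467608-136467637 (Kif14, plus strand), chr19:37376351-37376380 (Kif11, plus strand) and chrX:100626072-100626101 (Kif4, plus strand).
Kif23: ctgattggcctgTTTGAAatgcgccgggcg
Kif22: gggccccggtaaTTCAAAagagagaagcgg
Kifc1: cggaggttgaaaTTCAAAagtggcgggtgt
Kif14: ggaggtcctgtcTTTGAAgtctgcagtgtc
Kif11: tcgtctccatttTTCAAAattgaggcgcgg
Kif4: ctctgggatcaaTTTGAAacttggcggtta

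In Kif23, Kif22, Kifc1, Kif11 and Kif4 the first base of the motif shown lay 2, -17, 1, -19 and 19 bases from the annotated start site. Negative values are upstream, and in Kif14 it lay at -228. Kif22 held another CHR at -215. In the mitotic kinesins not shown, CHR matches lay at -103 (Kif2c), -234 and -19 (Kif15), 3 (Kif18b), 7 and 13 (Kif20b) and 29 (Kifc5b). The stretch shown for Kif23 also holds the reverse complement of a CCAAT box, attgg, shortly before the CHR. A match is only a stretch of letters, and no binding was measured.

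**Figure D4:**
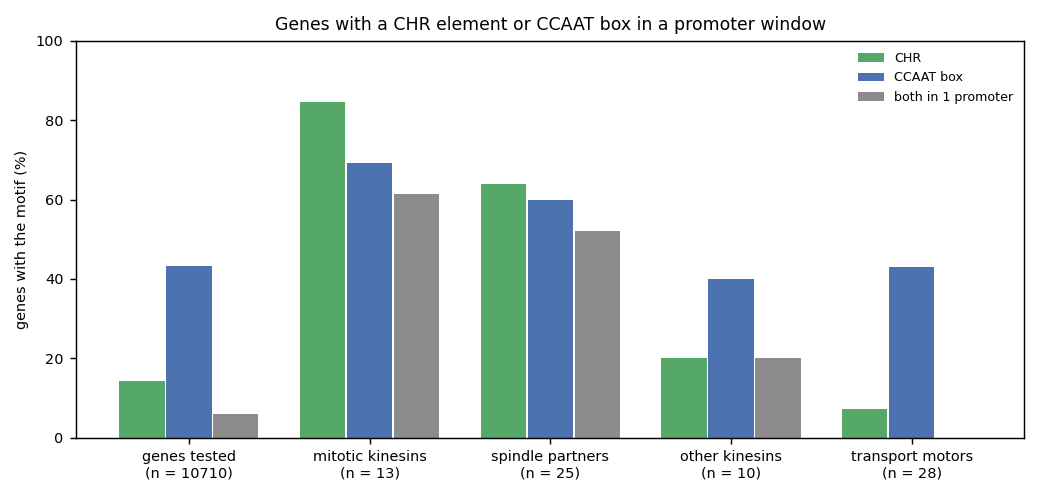
Percentage of genes with a CHR element, a CCAAT box or both in a promoter window of 300 bases, for all tested genes and for 4 groups of genes. The CHR bar stands at 84.6% for the mitotic kinesins and 64% for their spindle partners, beside 14.3% for all tested genes and 7.14% for the transport motors.

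Kif23 and Kif20a had the largest falls among the mitotic kinesins called lower. Kif23 (chromosome 9, 61915905 to 61946774), the motor of the centralspindlin complex, had 2281 and 2149 normalised counts in siCtl and 1644, 1433 and 1542 in siUpf1 (log2 fold change -0.52, SE 0.0712, DESeq2 adjusted p = 2.33e-12). Kif20a, which brings the chromosomal passenger complex to the central spindle, had 3761 and 3950 in siCtl and 2684, 2810 and 2765 in siUpf1 (-0.49, SE 0.0541, DESeq2 adjusted p = 3.77e-18). Both were called under every alternative setting tried.

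Kif14 (chromosome 1, 136466343 to 136531511) went in the opposite direction. It encodes a kinesin-3 motor that binds citron kinase and the central spindle protein PRC1 in cytokinesis. Counts of 716 and 741 in siCtl stood against 1105, 1045 and 1188 in siUpf1, or 153% of the siCtl level (log2 fold change 0.61, SE 0.0877, DESeq2 adjusted p = 2.48e-11). Its siUpf1 values thus lay above both siCtl values, and it was called higher under all 13 alternatives. Transcripts of its 2 named binding partners were not called, at 0.04 for Cit and 0.01 for Prc1.

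Smaller falls were seen in Kif22, the chromosome arm motor Kid, with 2072 and 2186 in siCtl and 1790, 1967 and 1788 in siUpf1 (log2 fold change -0.21, SE 0.067, DESeq2 adjusted p = 0.00589), and in Kifc1, a minus-end spindle motor, with 1018 and 1150 in siCtl and 896, 973 and 933 in siUpf1 (-0.22, SE 0.086, DESeq2 adjusted p = 0.028). Kif22 was not called without siCtl replicate 3 (DESeq2 adjusted p = 0.168) or siUpf1 replicate 3 (0.0618). Kifc1 was not called without siCtl replicate 3 (DESeq2 adjusted p = 0.443), siUpf1 replicate 1 (0.128) or siUpf1 replicate 3 (0.0985), nor with total-count scaling or without independent filtering. The number of mitotic kinesins called lower, 4 with all libraries, dropped to 2 when siCtl replicate 3 was left out, and to 2 when siUpf1 replicate 3 was. Kifc1 shares 17% of its windows of 100 nt with its near copy Kifc5b, so both are uncertain, and Kifc5b was not called (-0.12, 95% confidence interval -0.28 to 0.05).

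Several spindle motors were not called. Kif11, which pushes the spindle poles apart, had 2515 and 2668 in siCtl and 2640, 2376 and 2327 in siUpf1 (log2 fold change -0.08, 95% confidence interval -0.21 to 0.05). Kif15, which can stand in for it, was at -0.05 (-0.20 to 0.10), the chromokinesin Kif4 at -0.07 (-0.20 to 0.06), the astral microtubule motor Kif18b at -0.11 (-0.24 to 0.01) and the microtubule depolymerase Kif2c at 0.08 (-0.07 to 0.23). With the trend of length and GC content removed, 7 mitotic kinesins were called lower, the added ones being Kif11, Kif18b and Kif20b. Kif18b was also called without siUpf1 replicate 2 (-0.16, DESeq2 adjusted p = 0.049).

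In Kif20b and Kif18a, a single library stood apart. Kif20b, a cytokinesis motor, had 1257 and 1532 in siCtl and 1386, 1002 and 1017 in siUpf1, so that siUpf1 replicate 1 lay between the siCtl libraries. DESeq2 did not call it (log2 fold change -0.30, adjusted p = 0.31), whereas edgeR did (adjusted p = 0.0386), and without siUpf1 replicate 1 it was called lower (-0.47, DESeq2 adjusted p = 4e-05). Kif18a, which damps chromosome movements at the spindle equator, had 434 and 425 in siCtl and 442, 323 and 357 in siUpf1, again with siUpf1 replicate 1 highest, and was not called (-0.19, -0.47 to 0.08). Of the proliferation marks, Mki67 showed the same order, with 13975 in siUpf1 replicate 1 beside 10415 and 10707 in the other 2.

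**Figure D5:**
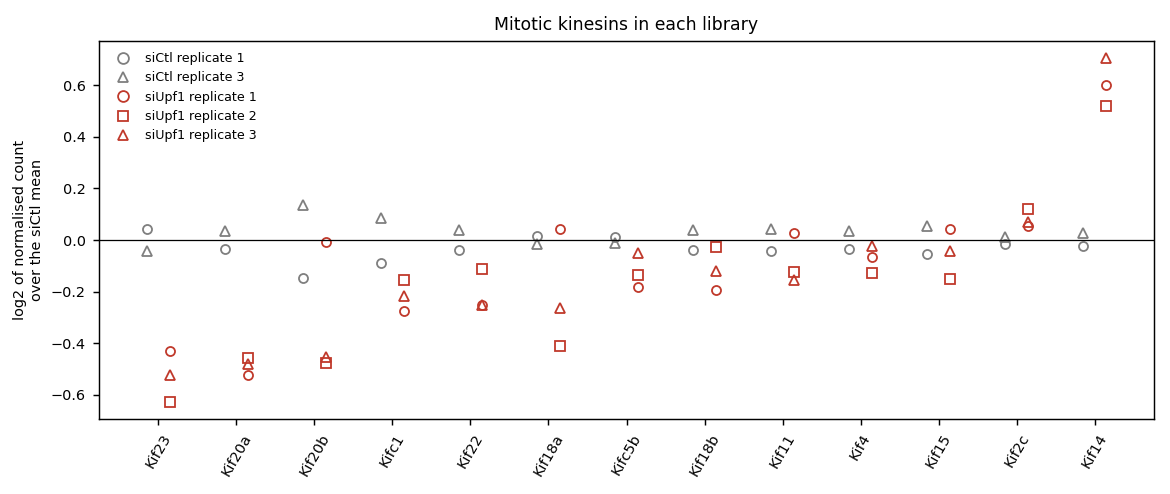
Log2 of the normalised count in each library over the siCtl mean for the 13 mitotic kinesins with reads, siCtl in grey and siUpf1 in red. Kif23 and Kif20a lie below 0 and Kif14 above 0 in all siUpf1 libraries, whereas siUpf1 replicate 1 lies between the siCtl points for Kif20b and above them for Kif18a.

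Of 9 proliferation marks, 5 were lower (55.6%) and 1 was higher (11.1%), beside 22.9% and 22% of all tested genes, with Cdc20 at -0.43 and Pcna at -0.40, Ccna2 at 0.12 and Top2a, not called, at 0.05 on the log2 scale. Their summed level overlapped between the groups, at 57106 and 61015 in siCtl and 60871, 57791 and 57104 in siUpf1. Their part in the mitotic kinesin levels was not tested, and in bulk RNA fewer dividing cells and less RNA per dividing cell cannot be told apart.

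The partners of the mitotic kinesins were counted from a list of 30 spindle and cytokinesis genes. Of these, 15 were lower (50%) and 6 higher (20%), with a median log2 fold change of -0.12, beside 22.9% lower and 22% higher over all tested genes. The share called higher was thus near that of all genes, and no test compared the list with them. The falls were led by Nusap1 (-0.64), which bundles spindle microtubules, Aurka (-0.52), the spindle pole kinase, and its activator Tpx2 (-0.46). The 3 largest rises were those of Incenp (0.50), the scaffold of the chromosomal passenger complex, Zwilch (0.49), of the kinetochore complex that recruits dynein, and the microtubule plus-end protein Clasp2 (0.47). Within 1 complex the directions differed: of the chromosomal passenger genes, Incenp and Birc5 (0.24) rose, and Aurkb (-0.26) and Cdca8 (-0.22) fell. Of 25 partner genes with a promoter, 16 held a CHR (64%).

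On the transport side, adaptors and regulators were counted from a list of 30 genes, of which 28 were tested. Here 7 were higher (25%) and 5 lower (17.9%), with a median of 0.01, beside 22% higher and 22.9% lower over all tested genes. The list as a whole was thus called about as often as all genes. Rises were seen in Spag9 (log2 fold change 0.30), Mapk8ip3 (0.19) and Mapk8ip2 (0.14), scaffolds that link JNK kinases to kinesin-1 and dynein, in the mitochondrial adaptor Trak1 (0.22), and in the dynein adaptors Bicd1 (0.30) and Hook3 (0.29). The number of adaptors called higher was 3 without siCtl replicate 1, 3 without siCtl replicate 3 and 4 without siUpf1 replicate 3.

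Some falls were in near relatives of genes that rose. Trak2 (-0.30) fell, as did Hook1 (-0.42), whose family link dynein to cargo as Hook3 does. Nudc, a dynein cochaperone, fell by 0.29 on the log2 scale, with 10896 and 11325 normalised counts in siCtl and 8951, 9650 and 8640 in siUpf1. Pafah1b1 (Lis1) and Ndel1, which regulate the dynein motor, were not called, at 0.02 and 0.06.

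The transcripts were also described by features that the grouping did not use. In GENCODE M21, the median 3′ UTR of the motor genes called higher was 2334 nt, of those called lower 542 nt and of those not called 533 nt. Over all tested mRNAs these medians were 1494, 840 and 928 nt. Kif5c (3621 nt), Kif3c (3609 nt) and Kif14 (3895 nt) had long 3′ UTRs, but so did Kif5b (2724 nt) and Dync1li2 (2902 nt), which fell. An isoform annotated as an NMD substrate was listed for 5 of 12 higher and 4 of 15 lower motor genes with a 3′ UTR. Over all tested mRNAs the share was 28.6%, with 26.9% of the higher, 31.1% of the lower and 28.1% of those not called. The counts are sums over isoforms, so the level of such isoforms was not measured.

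Letters that match the seed of an siRNA strand were searched in the same 3′ UTRs, since an siRNA can lower mRNAs other than its target through them. A match of 7 bases to a strand of the Upf1 siRNA was present in 8 of 59 motor genes (13.6%) and in 16.1% of all tested mRNAs. Matches were found in 4 of the 12 higher and 3 of the 15 lower motor genes, beside 16.4% of all higher and 19.8% of all lower tested mRNAs. Matches to the sense strand were in 8.84% of the higher, 14% of the lower and 8.45% of the not called tested mRNAs. Those to the antisense strand were in 8.91%, 8.03% and 7.18%. Sites are shown for 5 of the called motor genes described above, with the match in capitals, from 5′ to 3′ of the mRNA.
Kif5c: tgtcttttagaGATAATTctgctagttgc
Kif3c: ctataaactgaAACCTTGtttaaaatttt
Kif14: acgagcagcaaAACCTTGttacataaaca
Dynll2: agtgcaagggaAACCTTGtctgtcggtga
Dync1li2: tgtgattttgaAACCTTGatacaaaagtt

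GATAATT matches the antisense and AACCTTG the sense strand of the siRNA duplex. The first 4 of these genes rose and Dync1li2, with 3 matches in its 3′ UTR, fell. Kif5b and Kif20a, which fell, also held matches, and Kif3a, Kif23 and Dctn4 held none. Whether these matches bear on the levels was not tested.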

How the data were processed

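RNA from 2 siCtl and 3 siUpf1 libraries of N2A cells was compared. According to the study's methods and the submitters' processing notes, the authors trimmed reads with fastp, mapped them to GRCm38.p6 with STAR 2.7.0f, and counted reads on exons by strand with featureCounts (Subread 1.6.4). The deposited values are raw read counts per gene, neither normalised nor pooled. Reads shared by near-identical genes are lost or split by such counting. Of the genes in the table, 28121 had a read.

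The main comparison was the Wald test of DESeq2 1.42.0 (R 4.3.3) on all 5 libraries and the whole table, with median-of-ratios size factors, group as the only term, independent filtering, and p-values adjusted by Benjamini-Hochberg over all genes tested. Calls were made where the adjusted p-value was under 0.05. Genes without an adjusted p-value were counted as not tested. The log2 fold changes compare siUpf1 with siCtl and carry the SE of DESeq2, and confidence intervals are at 95%. Counts of single libraries are normalised by size factor. With 2 libraries against 3, single values rest on the model fitted across genes. TPM used the exon length of GENCODE M21, where 99.8% of the identifiers were found, and only levels between genes are given as TPM. This length covers the exons of all isoforms of a gene, and the order of genes by TPM depends on it. For each gene, 1 representative transcript gave the 3′ UTR. Promoters were taken from RefSeq.

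The members, lists and roles were chosen with earlier results of these data known. Full values are given for the 10 called members that rose most and the 10 that fell most by log2 fold change where the mean was 100 normalised counts or more, for families where a result turns on a member, and for members called by 1 of the tests only. Alternatives were edgeR 4.0.16 (quasi-likelihood), TMM or total-count size factors, at least 10 counts in 2 libraries, no independent filtering, mitochondrial genes left out, the replicate number as a block, and the omission of each library in turn. A fit that removes the trends of libraries with length and GC content of transcripts was chosen after seeing the data. Scripts were tested on simulated data. The level of 1 lineage mark is not reported here.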

Additional observations from a re-analysis of the deposited data

How the results depend on the processing

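Over the 60 tested motor genes and 13 alternatives, 692 of 780 values kept their direction and their side of the threshold, and 1 reversed: Dync1h1 at -0.21 (DESeq2 adjusted p = 4.33e-07) with the trend of length and GC content removed. No call of a motor gene turned into a call in the other direction. With each library left out in turn, 10 to 13 motor genes were higher and 10 to 15 lower, and mitotic kinesins lower ranged from 2 to 5 and transport adaptors higher from 3 to 6. A fit that leaves out a siCtl library has 1 left, which is assumed to vary like the siUpf1 libraries. With the trend removed, 7 mitotic kinesins were lower. Without independent filtering, Kif13b, Kif6 and Kifc1 were not called. Deviations from the group means correlated at -0.086 for replicate number 1 and -0.074 for number 3 over 11898 genes, and number 2 has no siCtl library. With 2 siCtl libraries, the siCtl deviations of number 3 mirror those of number 1, so these values are not separate checks. They cannot settle whether libraries with the same number were paired. With the replicate block, the number of genes called, higher in siUpf1, was 1957 in the whole table and that of genes called, lower in siUpf1, was 1962, while 7 motor genes were higher and 9 lower, 2 mitotic kinesins were lower, 5 transport motors were higher, 3 adaptors were higher and 2 lower, and 3 spindle partners were higher. The block kept 16 of the 28 motor calls, and Kifc2 (0.84, DESeq2 adjusted p = 0.0573) and Dynll2 (0.22, DESeq2 adjusted p = 0.0584) lost theirs under no other alternative. The cause of these changes was not tested. Counts limit the low genes most: Kif9, Klc3 and Kif6 had at most 72.6 normalised counts in any library.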
